A study of Canis lupus familiaris with 55 samples.

Results

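SOX genes encode transcription factors that bind DNA through a high mobility group domain like that of SRY, and they are sorted into groups by the sequence of that domain. The genes described here, in embryonic dog gonads, are those outside the SOXE group of *SOX9*: *SOX4*, *SOX11* and *SOX12* (SOXC), *SOX5*, *SOX6* and *SOX13* (SOXD), *SOX7*, *SOX17* and *SOX18* (SOXF) and *SOX15* (SOXG). These 10 genes were chosen by name, and each was read from the loci that carry that name in a transcript assembly guided by the CanFam3 annotation. Of the 10 genes, 8 had such a locus among 58781 loci. *SOX7* and *SOX11* were not analysed here.

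As background, SOXC proteins activate genes of progenitor and early neuronal cells, and *Sox4* is known in mice for a role in shaping the fetal gonad. SOXD proteins carry a coiled coil in place of a known activation domain. *SOX5* and *SOX6* act beside *SOX9* on cartilage genes. SOXF proteins control endothelial and lymphatic differentiation, and *SOX17* also acts in the human germline. *SOX15*, the sole SOXG member of mammals, is known in mice from muscle precursors, trophoblast and germ cells.

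Gene expression was measured by RNA-seq of gonads, given as FPKM (a level scaled to transcript length and to the number of mapped fragments), in 55 libraries, of which 53 held 1 embryo each. XX embryos at risk of DSD, a disorder in which dogs without *SRY* form testes or ovotestes, came from the model pedigree and carried a guanine insertion on CFA9: 9 at d35 (4 homozygous, 5 heterozygous), 8 at d37-39 (6 homozygous, 2 heterozygous) and 6 at d41-44 (6 homozygous). Their XY littermates carried the insertion too and form testes: 4 at d35 (3 homozygous, 1 heterozygous), 5 at d37-39 (5 homozygous) and 3 at d41-44 (1 homozygous, 2 heterozygous). Age-matched beagle controls, wild type at the insertion, numbered 6 XX and 6 XY embryos at d37-39 and 3 of each sex at d44. Pedigree embryos came from 2 to 4 litters a group, controls at d37-39 from 2 litters and controls at d44 from 1 litter, so the p-values measure the spread between embryos that partly share a dam. At d37-39, 2 of the 8 XX DSD embryos and 3 of the 6 XX controls were of d37 and the rest of d39. At d41-44, C3659 was the only pedigree embryo of d44, the age of all later controls. The labels place C3694, C3696 and C3691 at d41, whereas a table of the study gives them an earlier age. By developmental criteria the study analysed them with its oldest group. The comparisons were also run without these embryos and with them placed at d37-39. A further 2 libraries were pools of control gonads at d34 and were not tested.

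Libraries were pooled for sequencing by group, at risk or control, so that a difference between pedigree and control embryos cannot be told apart from one between sequencing pools, litters or breed backgrounds. At d41-44 depth differed as well: relative to the median library, it was 0.475 to 0.595 in XX DSD gonads and 1.12 to 1.51 in XX controls, and 0.498 to 0.55 in XY littermates and 0.738 to 1.13 in XY controls. At d37-39 the ranges overlapped, with 0.493 to 1.69 in XX DSD gonads and 0.555 to 1.58 in XX controls. Of all libraries, 4 stood apart by more than 6000 unannotated loci at 1 FPKM or more: the XY littermates C3627, C3637 and C3638 and the XY control A1099, all at d37-39. Every comparison that used them was repeated without them. The summed FPKM of unannotated loci split the libraries more widely. It was 210038 to 5771835 in all pedigree libraries of d35 and d39 and 1500650 in A1099, against 52436 to 121664 in all others. XX DSD embryos of d39 thus lay apart from their controls in this sum, and its part in the SOX values was not tested.

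The tissue labels were checked by marker genes. *SOX9*, which directs Sertoli cell differentiation, stayed at or under 10.4 FPKM in every XX embryo and was at least 52.5 FPKM in every XY embryo. *FOXL2*, a factor of ovarian granulosa cells, ranged from 2.87 to 50.2 FPKM in XX embryos and was at most 1.18 FPKM in single XY embryos. The endothelial genes *CDH5* and *PECAM1* were present throughout (at least 7.66 and 6.14 FPKM), whereas the germ cell gene *DDX4* did not pass 0.646 FPKM in any library. *AMH*, *NR5A1* and *POU5F1* were not analysed here. A whole gonad mixes cell types, so fewer cells of a type and less RNA per cell cannot be told apart in any value below.

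The SOXC genes had the highest medians of the set. Over 53 single-embryo libraries *SOX12* had a median of 25.8 FPKM (5.83 to 41.7), and *SOX4* a median of 17.3 FPKM (8.73 to 33.0). The mean of *SOX12* lay above the means of 92.5% of all loci. The SOXD genes spread widely, with medians of 15.8 FPKM for *SOX5* (2.94 to 27.7), 10.04 FPKM for *SOX13* (4.08 to 25.9) and 1.84 FPKM for *SOX6* (0.884 to 3.44). The SOXF genes *SOX17* and *SOX18* had close medians of 3.48 FPKM (1.52 to 8.04) and 3.38 FPKM (0.34 to 8.70). *SOX15* was lowest, with a median of 1.21 FPKM and a range that began at 0 and ended at 5.74 FPKM. In the order *SOX12*, *SOX4*, *SOX5*, *SOX13*, *SOX17*, *SOX18*, *SOX6*, *SOX15*, the ranges of all neighbours overlapped.

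**Figure D1:**
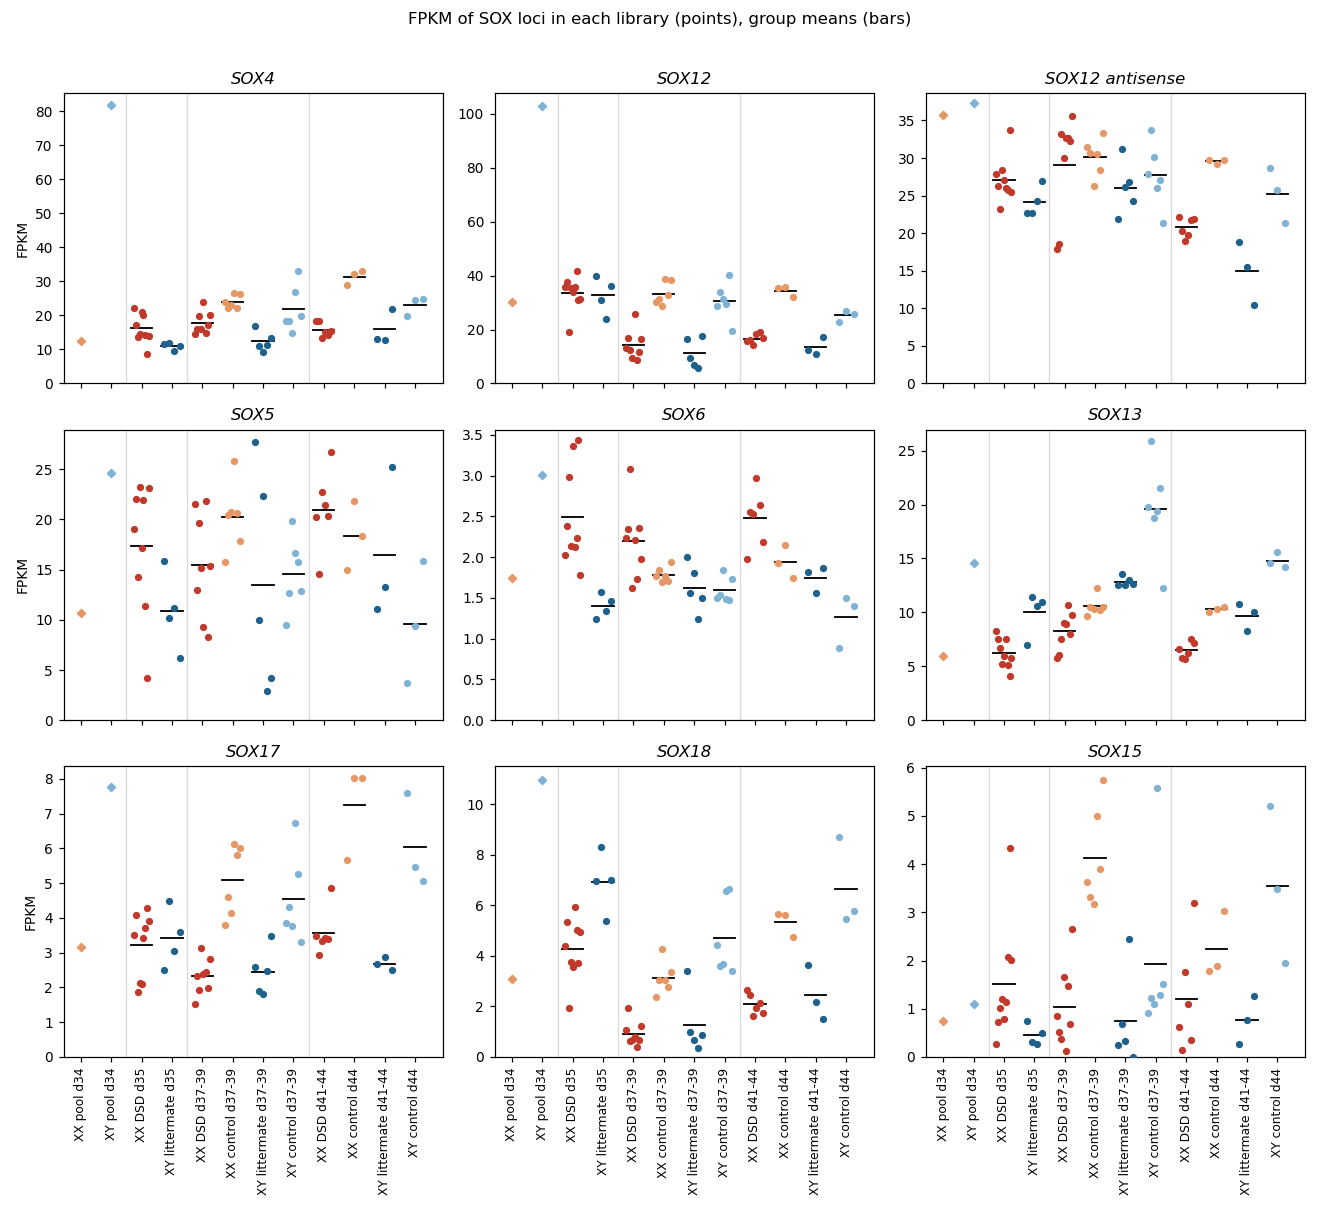
FPKM (y axis, linear, from 0) of each SOX locus in every library (points, diamonds for the d34 pools) by sex, pedigree and age, with group means as bars; red is XX DSD, orange XX control, dark blue XY littermate and light blue XY control. *SOX12*, *SOX17* and *SOX18* sit lower in XX DSD embryos than in XX controls at d37-39 and d41-44 without overlap, and *SOX12* in XX DSD embryos of d35 averages 33.5 FPKM.

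Several loci are shared with other genes, which bears on what their FPKM counts. *SOX12* (XLOC_026485, CFA24, minus strand, 20509851 to 20516260, 2 exon blocks) has a partner on the plus strand (XLOC_026124, 20509935 to 20513640) that the assembly also names *SOX12*, and 3344 of the 3425 exon bases of the partner lie in *SOX12* exons. The kit did not mark strand, so reads of *SOX12* and of this antisense locus cannot be told apart. Both loci lie within *C20orf96*. *SOX13* (XLOC_041671, CFA38, plus strand, 673466 to 728605) shares its locus with *ETNK2*, and *SOX5* (XLOC_030127, CFA27, plus strand, 22857669 to 23858292) shares its with a U6 RNA, so neither value can be given to the SOX gene alone. *SOX18* (XLOC_026704, CFA24, minus strand, 47494020 to 47497552) lies inside the *TCEA2* locus, and *SOX15* (XLOC_045070, CFA5, minus strand, 32508074 to 32509333) overlaps *MPDU1* and the *EFNB3* and *WRAP53* locus on the other strand. *SOX4* (XLOC_039620, CFA35, plus strand, 20043280 to 20101942), *SOX6* (XLOC_023155, CFA21, minus strand, 38730674 to 39320151) and *SOX17* (XLOC_032401, CFA29, plus strand, 5979003 to 5981701) share their loci with no other named gene.

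The first comparison asked how gonads of XX DSD embryos differed from those of XX controls. Of the 8 measured genes, 5 were lower at d37-39 (*SOX4*, *SOX12*, *SOX17*, *SOX18* and *SOX15*) and 5 at d41-44 (*SOX4*, *SOX12*, *SOX13*, *SOX17* and *SOX18*), and none was higher at either age. A gene was called at an adjusted p under 0.05 in limma on log2(FPKM + 1), adjusted over all loci tested. By that rule 8.11% of 25231 loci were lower and 5.65% higher at d37-39 (13.8% in either direction), and 29.2% of 19420 loci were lower and 19.3% higher at d41-44 (48.5% in either direction). The median difference of the 8 genes was -0.65 at d37-39 and -0.77 at d41-44 on the log2 scale, beside 0.09 and -0.09 for all loci.

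Among the SOXC genes, *SOX12* differed most when read without its antisense locus. Summed with that locus it differed by -0.76 at d41-44, less than the -0.95 of *SOX4*. At d37-39 *SOX12* had 8.79, 12.7 and 25.6 FPKM (lowest, median, highest of 8) in XX DSD gonads, against 28.8, 32.1 and 38.8 FPKM (of 6) in XX controls. The groups did not overlap, and C3632 was the highest of the XX DSD embryos. The means were 14.3 ± 5.44 FPKM in XX DSD gonads and 33.3 ± 4.20 FPKM in XX controls (SD), a difference of -1.23 ± 0.19 on the log2(FPKM + 1) scale (SE, adjusted p = 0.00093). At d41-44 the 6 XX DSD embryos ranged from 14.1 to 19.0 FPKM with a median of 16.4, against 35.2, 35.6 and 32.2 FPKM in the XX controls. The groups were again apart, by -1.01 ± 0.09 (adjusted p = 2.3e-05).

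The locus antisense to *SOX12* did not follow it at d37-39. There it averaged 29.1 ± 6.895 FPKM in XX DSD gonads and 30.1 ± 2.45 FPKM in XX controls (SD), a difference of -0.08 with a 95% interval from -0.41 to 0.24 (adjusted p = 0.72). The XX DSD embryos of the 2 ages lay apart: C3512 and C3515 of d37 had 17.9 and 18.6 FPKM, and the 6 embryos of d39 had 30.1 to 35.6 FPKM. C3512 and C3515 came from the same litter, with relative depths of 0.493 and 0.537 against 0.754 to 1.69 in the embryos of d39. Age, litter and library cannot be told apart there. At d41-44 the antisense locus was lower too, at 19.0 to 22.2 FPKM in XX DSD gonads against 29.8, 29.2 and 29.8 FPKM in XX controls (-0.49 ± 0.06, adjusted p = 9.2e-05). The antisense locus took 52.4% to 78.8% of the FPKM of the pair in XX DSD gonads of d37-39, against 44.1% to 51.1% in XX controls. Because the reads carry no strand, both loci were also summed. The sum was 43.4 ± 8.82 FPKM in XX DSD gonads and 63.5 ± 5.98 FPKM in XX controls at d37-39, and *SOX12* read this way stayed lower (-0.56, adjusted p = 0.0072). At d41-44 the sum was 37.5 ± 2.55 FPKM in XX DSD gonads and 63.9 ± 1.73 FPKM in XX controls, with *SOX12* at -0.76 (adjusted p = 1.5e-05). The part of the division of reads between the strands was not tested.

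**Figure D2:**
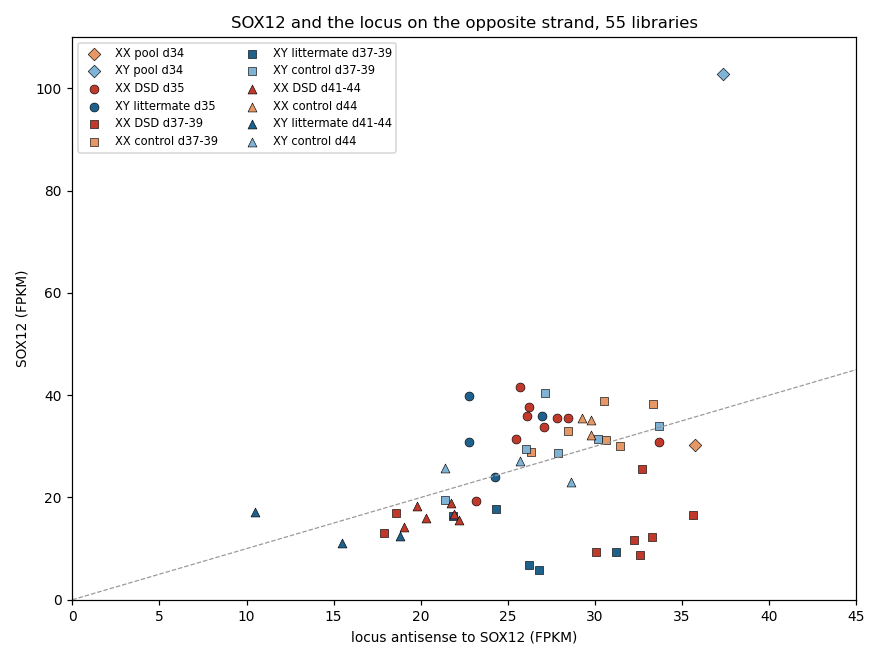
FPKM of *SOX12* (y axis) against FPKM of the locus on its opposite strand (x axis) in 55 libraries, with a dashed line where both are equal; circles are d35, squares d37-39, triangles d41-44 and diamonds the d34 pools, coloured by group. The XX DSD squares of d39 lie far below the line at 30.1 to 35.6 FPKM of the antisense locus, whereas the XX DSD triangles lie lower on both axes than the XX control triangles.

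*SOX4* was lower at both ages, and the difference between the ages was not tested. At d37-39 it had 14.6, 16.6 and 24.0 FPKM (lowest, median, highest) in XX DSD gonads, against 22.1, 23.6 and 26.6 FPKM in XX controls. Only C3632 reached the control range (-0.42 ± 0.10, adjusted p = 0.013). At d41-44 the XX DSD embryos had 13.4 to 18.3 FPKM, against 28.9, 32.2 and 33.0 FPKM in XX controls. The groups did not overlap (-0.95 ± 0.10, adjusted p = 6.3e-05).

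Of the SOXD genes, only *SOX13*, read with *ETNK2*, was called, at d41-44. It averaged 8.23 ± 1.74 FPKM in XX DSD gonads and 10.6 ± 0.898 FPKM in XX controls at d37-39, a difference of -0.35 with an interval from -0.60 to -0.09 that missed the threshold after adjustment (adjusted p = 0.073). Without C3633, the highest XX DSD value at 10.7 FPKM, *SOX13* was called lower there (adjusted p = 0.031). At d41-44 it was 5.71 to 7.54 FPKM in XX DSD gonads against 10.04, 10.3 and 10.5 FPKM in XX controls, lower without overlap (-0.59 ± 0.08, adjusted p = 0.00034). *SOX5* did not pass the test at d37-39, with 15.5 ± 5.22 FPKM in XX DSD gonads and 20.2 ± 3.37 FPKM in XX controls (interval -0.85 to 0.02), nor at d41-44, with 20.98 ± 3.96 and 18.4 ± 3.46 FPKM (interval -0.21 to 0.56). *SOX6* stood at 2.2 ± 0.45 FPKM in XX DSD gonads and 1.79 ± 0.0918 FPKM in XX controls at d37-39 and at 2.48 ± 0.349 and 1.94 ± 0.201 FPKM at d41-44, and did not pass the test at either age (adjusted p = 0.34 and 0.1). Without C3694, *SOX6* was called higher at d41-44 (adjusted p = 0.044).

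Both measured SOXF genes were lower at both ages. *SOX17* had 1.52, 2.35 and 3.14 FPKM (lowest, median, highest) in XX DSD gonads of d37-39, against 3.80, 5.21 and 6.14 FPKM in XX controls. It did not overlap between the groups (-0.87 ± 0.13, adjusted p = 0.00077). At d41-44 it had 2.93, 3.41 and 4.86 FPKM in XX DSD gonads, against 5.67, 8.02 and 8.04 FPKM in XX controls (-0.85 ± 0.14, adjusted p = 8e-04). *SOX18*, which acts in lymphatic vessels, fell to 0.41, 0.726 and 1.93 FPKM in XX DSD gonads of d37-39, against 2.39, 3.04 and 4.26 FPKM in XX controls (-1.13 ± 0.17, adjusted p = 0.00074). The means were 0.919 FPKM in XX DSD gonads and 3.14 FPKM in XX controls, a ratio of 0.293. At d41-44 it had 1.61, 2.04 and 2.65 FPKM in XX DSD gonads, against 5.67, 5.63 and 4.77 FPKM in XX controls (-1.05 ± 0.12, adjusted p = 9.6e-05).

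Endothelial markers were counted beside the SOXF genes. Of 22 listed genes 17 were tested at d37-39 and 1 was lower, *ROBO4* (-0.67 ± 0.15, adjusted p = 0.01), a receptor of endothelial cells. The list had a median difference of -0.01, beside 0.09 for all loci, and its summed level was 201.0 to 288 FPKM in XX DSD gonads and 214 to 262 FPKM in XX controls, with no marker at 0 in every library of a group. *CDH5* had 37.2 ± 9.93 FPKM in XX DSD gonads and 31.5 ± 3.60 FPKM in XX controls there. At d41-44, 11 of 18 tested markers were lower and 2 higher, with a median difference of -0.47 beside -0.09 for all loci and sums of 223 to 270 FPKM in XX DSD gonads against 258 to 297 FPKM in XX controls. The 3 with the lowest adjusted p were *VWF*, the clotting factor stored in endothelium (-0.98 ± 0.11), *GJA4*, a gap junction protein of arteries (-1.26 ± 0.17), and *EMCN*, a sialomucin of capillaries and veins, which was higher (0.55 ± 0.08). *CDH5* had 33.07 ± 2.035 FPKM in XX DSD gonads and 42.34 ± 5.44 FPKM in XX controls at d41-44. What part endothelial cell number had in the SOXF values was not tested at either age.

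*SOX15* was lower at d37-39 alone by the test, although the difference between the ages was not tested. At d37-39 it had 0.124, 0.765 and 2.66 FPKM (lowest, median, highest) in XX DSD gonads, against 3.17, 3.76 and 5.74 FPKM in XX controls. The groups did not overlap (-1.40 ± 0.24, adjusted p = 0.0019), and the ratio of means was 0.253. At d41-44 the XX DSD embryos had 0.146 to 3.20 FPKM with a median of 0.86, against 1.79, 1.88 and 3.03 FPKM in XX controls. These overlapped through C3659 (interval -1.58 to 0.21, adjusted p = 0.2), and without C3659 *SOX15* was called lower (adjusted p = 0.044).

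Germ cell genes were counted beside *SOX15*. Of 7 tested genes of the germ cell list, 4 were lower in XX DSD gonads of d37-39: *DPPA3*, a maternal factor expressed in primordial germ cells (-1.41 ± 0.27, adjusted p = 0.0032), *TFAP2C* (-0.83 ± 0.21, adjusted p = 0.018) and *PRDM14* (-0.61 ± 0.18, adjusted p = 0.034), both regulators of primordial germ cell fate, and *NANOS3*, an RNA-binding factor for germ cell survival. Their median difference was -0.61, beside 0.09 for all loci, and the list summed to 17.0 to 34.8 FPKM in XX DSD gonads against 31.7 to 40.7 FPKM in XX controls, with *NANOG* at 0 in every XX control. At d41-44 1 of 6 was lower, *NANOS3* (-0.79 ± 0.28, adjusted p = 0.044), with sums of 12.2 to 41.04 FPKM in XX DSD gonads and 21.6 to 32.1 FPKM in XX controls. The part of germ cell number in the *SOX15* values was not tested.

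Lists for the SOXC and SOXD genes were counted in the same way. Of 6 tested candidate targets of *SOX4* and *SOX11*, 1 was lower in XX DSD gonads at d37-39, the WNT receptor *FZD5* (-0.64 ± 0.14, adjusted p = 0.0066), and 4 at d41-44. The 3 with the lowest adjusted p at d41-44 were *TMSB10*, which binds actin (-0.81 ± 0.05), *TEAD2*, a partner of YAP (-0.55 ± 0.04), and *TCF7L2*, an effector of WNT signalling (-0.59 ± 0.09). Cartilage genes, which *SOX5* and *SOX6* act on with *SOX9*, went both ways at both ages. Of 7 tested at d37-39, 2 were higher and 2 lower, and of 6 at d41-44 the counts were 2 and 2. The collagen IX chains *COL9A3* (-1.23 ± 0.20) and *COL9A2* (-0.82 ± 0.22) were lower at d37-39, and *HAPLN1*, a link protein of the matrix, was higher (0.76 ± 0.18). Neuronal genes had 0 of 5 called at d37-39 by limma, with 1 at an unadjusted p under 0.05, and 1 of 5 lower at d41-44.

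**Figure D3:**
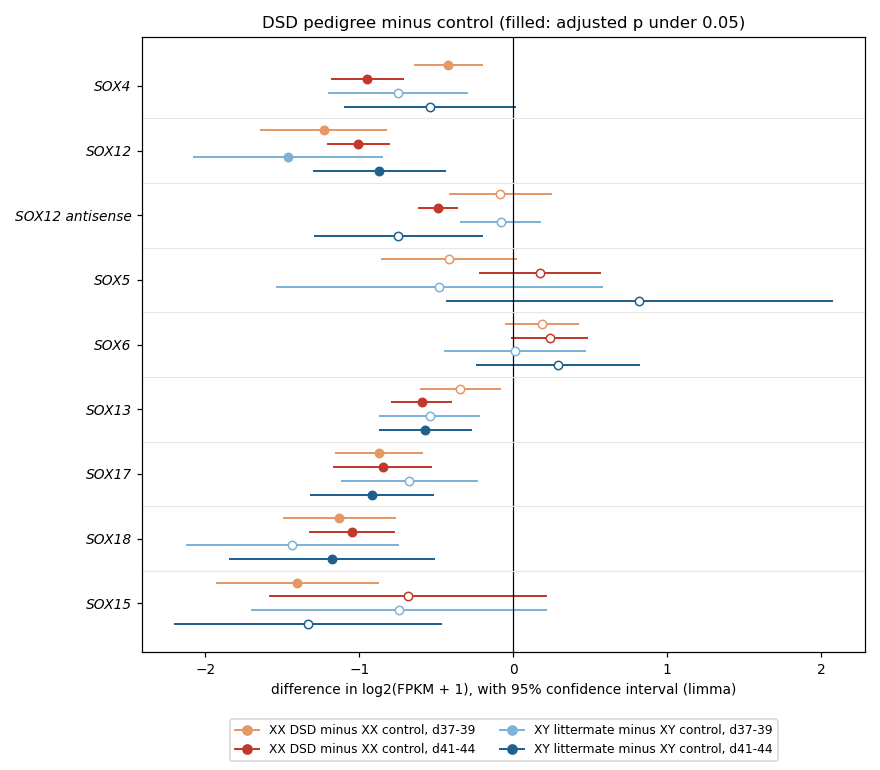
Difference between pedigree and control gonads in log2(FPKM + 1) (x axis, points) with 95% confidence intervals (lines) for each SOX locus, in XX and XY embryos at d37-39 and d41-44; filled points had an adjusted p under 0.05. *SOX4*, *SOX12*, *SOX13*, *SOX17*, *SOX18* and *SOX15* lie below 0 in all 4 comparisons. In XY embryos of d37-39 they run from -0.54 for *SOX13* to -1.46 for *SOX12*. *SOX6* lies at or above 0 in all 4 comparisons.

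Gene density moved with the pedigree difference over all loci and is given beside the SOX values. Across loci the number of annotated loci within 500 kb and the difference between XX DSD and XX control gonads had a rank correlation of -0.29 at d37-39 and -0.31 at d41-44, as a description over loci that share libraries. In the class of *SOX12* and *SOX18*, with 21 to 30 neighbouring loci, the median difference was -0.06 at d37-39 and -0.33 at d41-44, and 13.5% and 45.2% of loci were lower. *SOX4* lies in the sparsest class of 0 to 2 loci, where the medians were 0.49 and 0.10 and 4.93% and 12.4% of loci were lower. *SOX17*, with 8 neighbouring loci, lies in a class with medians of 0.21 and 0.17. *SOX15*, with 57, lies in the densest class with medians of -0.23 and -0.62, so that its difference of -0.68 at d41-44 was near that of its class. With this trend removed in each library, the same 5 genes were lower in XX DSD than in XX control gonads at each age. *SOX12* stood at -1.08 and -0.66, *SOX18* at -0.96 and -0.65 and *SOX4* at -0.42 and -0.97.

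**Figure D4:**
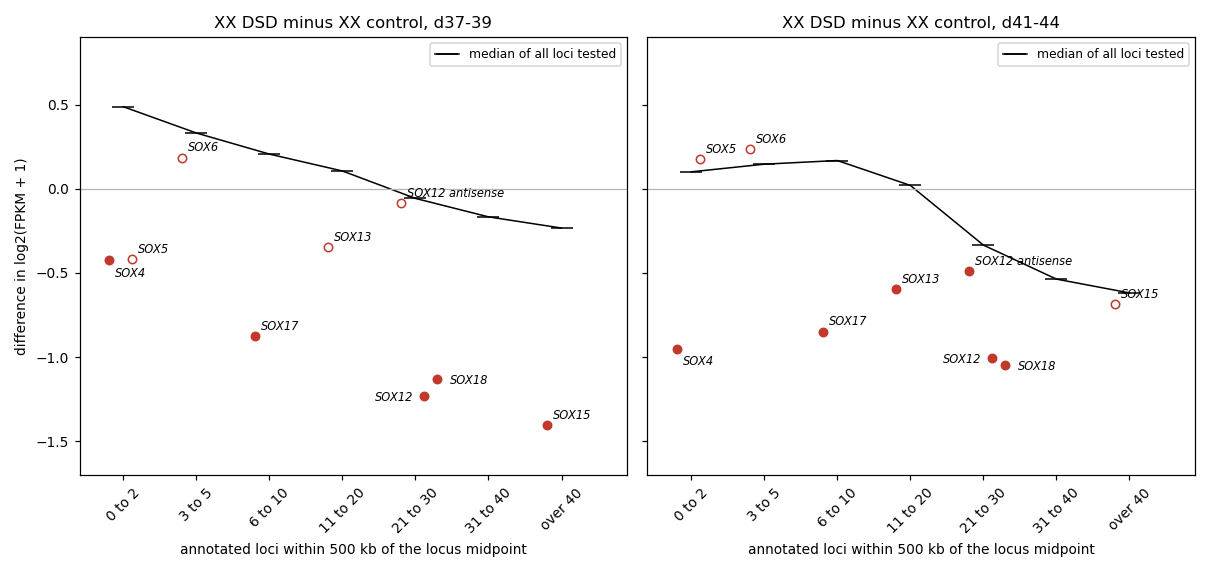
Difference between XX DSD and XX control gonads in log2(FPKM + 1) (y axis) by the number of annotated loci within 500 kb of the locus midpoint (x axis, classes), at d37-39 (left) and d41-44 (right); black bars are medians of all loci tested in a class, and filled points had an adjusted p under 0.05. *SOX4*, *SOX12*, *SOX17* and *SOX18* lie well below the medians of their classes at both ages, and *SOX15* lies near its class median at d41-44.

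Litters were the other limit of this comparison. With 1 mean per litter and group (4 litters against 2), none of the 8 genes was called at d37-39 in limma, where 0.0198% of loci were, and 5 had an unadjusted p under 0.05, while *SOX12* differed by -1.24 (adjusted p = 0.11) and *SOX18* by -1.13 (adjusted p = 0.25). At d41-44 all controls were of 1 litter, so the spread between control litters could not be measured. A fit of litter means therefore could not test these calls. With 1 mean per litter and group there, the differences were -0.98 for *SOX4*, -1.03 for *SOX12*, -0.60 for *SOX13*, -0.81 for *SOX17* and -1.10 for *SOX18*. *SOX4* at d37-39 was also lost with d39 embryos alone (-0.41, adjusted p = 0.11) and with litter as a random effect (adjusted p = 0.11). With d39 embryos alone *SOX12* differed by -1.41 (adjusted p = 0.02), *SOX17* by -1.03 (adjusted p = 0.0035), *SOX18* by -1.24 (adjusted p = 0.01) and *SOX15* by -1.55 (adjusted p = 0.037).

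The same question was put to XY embryos, in which littermates from the pedigree were compared with XY controls. All genes called were lower in the littermates: 1 of 8 at d37-39 (*SOX12*) and 4 of 8 at d41-44 (*SOX12*, *SOX13*, *SOX17* and *SOX18*), and each of these calls was lost under several alternatives. Over all loci 0.885% of 32331 were lower and 0.402% higher at d37-39 (1.29% in either direction), and 8.58% of 19137 were lower and 2.63% higher at d41-44 (11.2% in either direction). At d37-39 the median of all loci was 0.34, against -0.71 for the 8 genes.

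*SOX12* had 16.3, 9.31, 6.74, 5.83 and 17.7 FPKM in the 5 XY littermates of d37-39, against 19.4, 30.5 and 40.4 FPKM (lowest, median, highest of 6) in XY controls. The groups did not overlap (-1.46 ± 0.28, adjusted p = 0.042). At d41-44 the littermates had 12.4, 11.1 and 17.2 FPKM and the XY controls 22.9, 27.1 and 25.8 FPKM (-0.87 ± 0.17, adjusted p = 0.037). Its antisense locus was not called at either age (-0.08, adjusted p = 0.64, and -0.75, adjusted p = 0.076). At d37-39 the pair summed to 37.3 ± 4.30 FPKM in littermates and 58.3 ± 9.99 FPKM in XY controls.

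*SOX18* set C3516 apart from the other XY littermates of d37-39. It was the only one of d37 and of its litter. Its relative depth was 0.545, against 0.937 to 1.83 in the others, so age, litter and library cannot be told apart. C3516, the d37 littermate, had 3.40 FPKM, and the 4 littermates of d39 had 0.989, 0.685, 0.34 and 0.853 FPKM, against 3.38, 4.06 and 6.64 FPKM (lowest, median, highest) in XY controls. C3516 alone overlapped the controls, and the difference missed the threshold (-1.44 ± 0.31, adjusted p = 0.052). *SOX18* was called without C3516 (adjusted p = 0.006) or without the XY control A1095 (adjusted p = 0.025), and *SOX13* was called there without A1095 (adjusted p = 0.0035). At d41-44 *SOX18* had 3.64, 2.17 and 1.51 FPKM in littermates, against 8.70, 5.47 and 5.78 FPKM in XY controls (-1.18 ± 0.27, adjusted p = 0.047). *SOX17* had 2.68, 2.89 and 2.50 FPKM in littermates of d41-44, against 7.61, 5.46 and 5.06 FPKM in XY controls (-0.92 ± 0.16, adjusted p = 0.031). *SOX13*, read with *ETNK2*, had 10.7, 8.24 and 10.03 FPKM in the littermates there, against 14.6, 15.6 and 14.2 FPKM in XY controls (-0.57 ± 0.12, adjusted p = 0.04). *SOX15* was apart in the same embryos, at 0.278, 0.77 and 1.26 FPKM in littermates against 5.21, 3.48 and 1.94 FPKM in XY controls, and missed the threshold (-1.33 ± 0.36, adjusted p = 0.06). It was called without A1109 (adjusted p = 0.048), with all groups in 1 fit (adjusted p = 0.022), with litter as a random effect (adjusted p = 0.016) and with annotated loci alone (adjusted p = 0.024).

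The other genes missed the threshold at d37-39. *SOX15* had 0.255, 0.68, 0.342, 2.44 and 0 FPKM in the littermates there, against 0.915, 1.26 and 5.57 FPKM (lowest, median, highest) in XY controls, which overlapped (adjusted p = 0.48). *SOX4* averaged 12.4 ± 2.95 FPKM in littermates and 21.8 ± 6.76 FPKM in XY controls (-0.75 ± 0.20, adjusted p = 0.1).

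The XY calls depended on how litter, age and gene density were treated. At d37-39 *SOX12* was lost with litter as a random effect (adjusted p = 0.091), with 1 mean per litter (adjusted p = 0.32) and with d39 embryos alone (adjusted p = 0.31). At d41-44 all 4 genes were lost without the d41 embryo C3691 (adjusted p 0.091 to 0.11) and with the density trend removed (adjusted p 0.052 to 0.1). The controls there were a single litter, so a fit of litter means could not test these calls either. With that trend removed *SOX12* stood at -0.57, *SOX18* at -0.83, *SOX13* at -0.56 and *SOX17* at -1.03.

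Leaving out single libraries also changed the XY calls. At d37-39, leaving out 1 of 11 libraries gave 0 to 3 called genes, and *SOX12* was lost without any of C3626, C3627, C3637, A1096, A1099, A1100, A1091 or A1094 (adjusted p up to 0.11). At d41-44 leaving out any of the 6 libraries left 0 to 2 of the 4 called genes, with adjusted p up to 0.14 for *SOX12* and *SOX18*, 0.15 for *SOX13* and 0.13 for *SOX17*. Without the 4 libraries richest in unannotated loci no gene was called at d37-39 in limma, where 0.265% of loci were, and 3 had an unadjusted p under 0.05.

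Whether the pedigree difference itself differed between XX and XY embryos was tested as an interaction. No SOX gene passed in limma at either age, none had an unadjusted p under 0.05, and 0.00514% of 38909 loci passed at d37-39 and 0.115% of 22686 at d41-44 (0.0397% higher, 0.0749% lower). The interval for *SOX12* ran from -0.46 to 0.93 at d37-39 and from -0.53 to 0.26 at d41-44, and for *SOX18* from -0.37 to 0.98 and from -0.47 to 0.73. A p that misses the threshold does not show that the sexes responded alike.

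The second kind of comparison set XX against XY gonads. *SOX13*, read with *ETNK2*, was lower in XX embryos in all 5 comparisons, 3 within the pedigree and 2 within controls. These share no embryos with each other but use the libraries of the pedigree comparisons. At d35 it had 4.08, 5.96 and 8.26 FPKM (lowest, median, highest of 9) in XX DSD gonads, against 6.94, 11.4, 10.6 and 10.99 FPKM in XY littermates (-0.60 ± 0.16, adjusted p = 0.018). C3574 alone among these littermates fell within the XX range. At d37-39 it had 5.73, 8.48 and 10.7 FPKM in XX DSD gonads and 12.5, 13.6, 12.5, 12.98 and 12.6 FPKM in XY littermates, with no overlap (-0.61 ± 0.13, adjusted p = 0.0085). In controls of that age it had 9.66, 10.4 and 12.3 FPKM in XX and 12.2, 19.6 and 25.9 FPKM in XY gonads (-0.81 ± 0.14, adjusted p = 0.00066). The control sexes overlapped only through A1095, at 12.2 FPKM, and A1086, at 12.3 FPKM.

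At the latest age *SOX13* did not overlap between the sexes in either pedigree. It was 5.71 to 7.54 FPKM in XX DSD gonads against 10.7, 8.24 and 10.03 FPKM in XY littermates of d41-44 (-0.51 ± 0.11, adjusted p = 0.0068). In controls of d44 it was 10.04, 10.3 and 10.5 FPKM in XX against 14.6, 15.6 and 14.2 FPKM in XY gonads (-0.48 ± 0.07, adjusted p = 0.0045). The share of loci lower in XX was 13.1% at d35, 4.09% and 15.5% in the later pedigree comparisons, and 13.8% and 12% in controls of d37-39 and d44. The shares called in either direction were 21.4%, 7.49% and 28.3% in the pedigree and 26.5% and 24.8% in controls. The call was lost at d35 without any of C3618, C3619 or C3617 (adjusted p up to 0.073) or with litter as a fixed factor (adjusted p = 0.1), at d37-39 in the pedigree without the 4 libraries richest in unannotated loci (adjusted p = 0.12), at d37-39 in controls with d39 embryos alone (adjusted p = 0.12), at d44 with all groups in 1 fit (adjusted p = 0.055) and at d41-44 without the d41 embryos (adjusted p = 0.094).

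Other sex differences were found at single ages. *SOX6* was higher in XX at d35, at 1.78, 2.24 and 3.44 FPKM (lowest, median, highest) in XX DSD gonads against 1.24, 1.57, 1.34 and 1.46 FPKM in XY littermates. The groups did not overlap (0.52 ± 0.14, adjusted p = 0.018), and 8.30% of loci were higher. The call was lost without C3618 (adjusted p = 0.055). *SOX18* was lower in XX at d35, with 4.29 ± 1.2 FPKM in XX DSD gonads and 6.91 ± 1.2 FPKM in XY littermates (-0.61 ± 0.19, adjusted p = 0.038). That call was lost without any of C3509, C3571, C3525, C3574, C3619 or C3617 (adjusted p up to 0.14). With litter as a fixed factor, none of the 8 genes was called at d35 in limma, where 8.93% of loci were, and 3 had an unadjusted p under 0.05. Without C3575, *SOX4* (adjusted p = 0.009) and *SOX5* (adjusted p = 0.02) were called higher in XX there as well.

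*SOX4* was higher in XX DSD gonads than in XY littermates at d37-39, at 17.9 ± 3.22 and 12.4 ± 2.95 FPKM (0.50 ± 0.14, adjusted p = 0.047, 3.41% of loci higher). These groups share all their litters, and with litter as a fixed factor the difference was 0.52 (adjusted p = 0.073). Leaving out any of 10 of the 13 libraries also lost this call (adjusted p up to 0.13), all except C3512, C3633 and C3516, as did leaving out the libraries richest in unannotated loci (0.34, adjusted p = 0.41). *SOX4* was higher in XX than in XY controls of d44 as well, at 28.9, 32.2 and 33.0 FPKM against 19.8, 24.7 and 24.9 FPKM (0.43 ± 0.11, adjusted p = 0.04), and *SOX12* likewise at 35.2, 35.6 and 32.2 FPKM against 22.9, 27.1 and 25.8 FPKM (0.43 ± 0.09, adjusted p = 0.018). In that comparison 12.8% of loci were higher. *SOX4* lost its call without any of the libraries but A1106 (adjusted p up to 0.14), and *SOX12* without A1104 or A1107 (adjusted p up to 0.075).

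In controls of d37-39, *SOX5* and *SOX15* were higher in XX, where 12.7% of loci were. *SOX15* had 3.17, 3.76 and 5.74 FPKM (lowest, median, highest) in XX gonads, against 0.915, 1.26 and 5.57 FPKM in XY gonads. A single XY control, A1091, had 5.57 FPKM, and the other 5 stayed at or under 1.52 FPKM (0.93 ± 0.27, adjusted p = 0.02). The call was lost without the XX control A1089 (adjusted p = 0.05). *SOX18* was called lower in XX there without A1101, A1099 or A1095 (lowest adjusted p 0.036). *SOX5* had 20.2 ± 3.37 FPKM in XX and 14.5 ± 3.63 FPKM in XY gonads (0.47 ± 0.16, adjusted p = 0.044). It was lost when any of 9 of the 12 libraries was left out, all but A1097, A1100 and A1091 (adjusted p up to 0.1). At d41-44 in the pedigree, *SOX12* (adjusted p = 0.015) and *SOX5* (adjusted p = 0.025) were called higher in XX without C3522, and *SOX6* without C3694 (adjusted p = 0.033). *SOX17* passed in none of the 5 comparisons, with differences from -0.08 at d35 to 0.30 within the pedigree at d41-44.

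**Figure D5:**
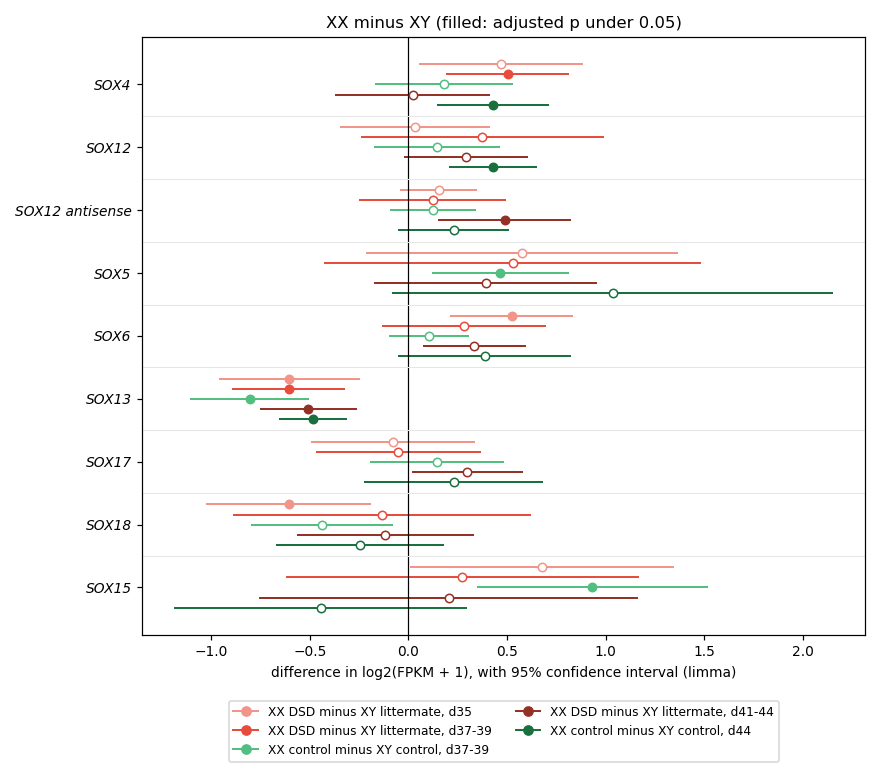
Difference between XX and XY gonads in log2(FPKM + 1) (x axis, points) with 95% confidence intervals (lines) for each SOX locus, within the pedigree at 3 ages (reds) and within controls at 2 ages (greens); filled points had an adjusted p under 0.05. *SOX13*, read with *ETNK2*, is filled and below 0 in all 5 comparisons, from -0.48 to -0.81, and no other gene is filled in more than 2.

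The last comparisons followed age within a group. Between d35 and d41-44, *SOX12* and *SOX18* were lower at the later age in XX DSD gonads, where 21.9% of 19140 loci were (35% changed in either direction). *SOX12* had 19.3, 35.5 and 41.7 FPKM (lowest, median, highest) at d35 and 14.1, 16.4 and 19.0 FPKM at d41-44, and C3511 at d35 was close to the later range without touching it (-0.95 ± 0.13, adjusted p = 8e-05). *SOX18* had 1.92, 4.39 and 5.95 FPKM at d35 and 1.61, 2.04 and 2.65 FPKM at d41-44, with C3511 again the one d35 embryo in the later range (-0.75 ± 0.16, adjusted p = 0.0021). Relative depth was 0.465 to 1.78 at d35 and 0.475 to 0.595 at d41-44. The summed FPKM of unannotated loci was 520271 to 5771835 at d35 and 58533 to 76137 at d41-44. The ages shared no litter, and d35 held 5 heterozygous embryos whereas d41-44 held homozygous ones only. Age, genotype, litter and library therefore cannot be told apart, and the part of each was not tested. Both genes kept their call in every fit that left out a library and in every alternative run. At d37-39, between these ages, *SOX12* averaged 14.3 ± 5.44 FPKM and *SOX18* 0.919 ± 0.483 FPKM in XX DSD gonads. Summed with its antisense locus, *SOX12* averaged 60.6, 43.4 and 37.5 FPKM at d35, d37-39 and d41-44. The antisense locus took a mean of 45%, 67% and 56% of these sums.

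In controls the span measured was d37-39 to d44, and its difference from the span in XX DSD gonads was not tested. In XX controls *SOX12* averaged 33.3 ± 4.20 FPKM at d37-39 and 34.3 ± 1.90 FPKM at d44 (0.05, interval -0.18 to 0.27, adjusted p = 0.78). *SOX4* was higher at d44, with 24.0 ± 1.95 FPKM at d37-39 and 31.4 ± 2.14 FPKM at d44 (0.37 ± 0.07, adjusted p = 0.04), as was *SOX18*, with 3.14 ± 0.636 and 5.35 ± 0.510 FPKM (0.63 ± 0.13, adjusted p = 0.042), where 1.96% of 19500 loci were higher and 2.61% changed in either direction. Leaving out any library cost at least 1 of these calls, with adjusted p up to 0.17 for either gene, and the d44 controls were 1 litter. In XY controls no SOX gene was called in limma and none had an unadjusted p under 0.05, where 0.138% of loci passed (0.0691% in each direction). Wild type gonads of d35 were not analysed here.

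How the members varied together within groups was described by correlation. Over the 53 single-embryo libraries, deviations from the group mean of log2(FPKM + 1) had a Pearson correlation of 0.51 between *SOX4* and *SOX12*, 0.51 between *SOX12* and *SOX18*, 0.43 between *SOX17* and *SOX15* and 0.37 between *SOX17* and *SOX18*. *SOX12* and its antisense locus had -0.05, although their reads carry no strand and cannot be told apart. These correlations are descriptions over libraries that share litters and differ in depth.

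The genes most like each member by that measure, among 10376 loci with 1 gene name, were as follows. For *SOX4* they were *ZBTB47* (0.82), *PTPRS* (0.75) and *PLEC* (0.75), and for *SOX12* *PRMT6* (0.84), *TCF3* (0.81) and *LRP3* (0.80). For the locus antisense to *SOX12* they were *TESK1* (0.84), *MPND* (0.83) and *FGD1* (0.83), none of them among those of *SOX12*. Reads of these overlapping loci carry no strand, so these correlations cannot be given to separate transcripts. For *SOX5* they were *MYO5A* (0.74), *CLINT1* (0.74) and *DEPTOR* (0.73). For *SOX6* they were *FGF12* (0.59), *GRSF1* (0.58) and *HGF* (0.56), and for *SOX13* *DENND4B* (0.86), *ZMYM3* (0.83) and *PEAR1* (0.82). For *SOX17* they were *CRIP2* (0.72), *MXRA8* (0.71) and *DBP* (0.70), and for *SOX18* *ANKRD9* (0.83), *FAM43A* (0.78) and *MFSD3* (0.74). For *SOX15* they were *DPPA3* (0.80), *DPPA5* (0.79) and *LIN28A* (0.77), of which *DPPA3* and *LIN28A* are expressed in germ cells and early embryos.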

How the data were processed

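Gonads of 53 single canine embryos and 2 pools were sequenced single-end with a kit that does not mark strand. Per the labels and the study's methods, the authors trimmed reads with cutadapt (1.5 in the submitters' processing notes), mapped them to CanFam3 with TopHat2 2.0.13, assembled transcripts guided by the annotation and computed the deposited FPKM values with Cuffnorm of Cufflinks 2.2.1. FPKM divides by transcript length and mapped fragments and depends on how reads are shared out between overlapping loci. The exon positions of the assembly gave the names and positions of loci. The FPKM values of annotated genes were not used, since they do not pair the members with identifiers.

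Levels were put on a log2(FPKM + 1) scale and tested two-sided by limma 3.58.1 (a linear model with moderated, trended variance) under R 4.3.3, with tables read by data.table (1.17.8). This is a scale that understates changes of low genes. Loci with a mean of at least 1 FPKM in any group of the fit entered, and p-values were adjusted by Benjamini-Hochberg over all of them. All 8 measured members passed this filter in every comparison. Pairwise fits held the groups compared, and the interaction 4 groups. The test was tried on simulated data. Total read counts are not given, so relative depth was estimated from the step that 1 read adds to low values (median library set to 1). Embryos labelled d41 were kept with d41-44. A table of the study lists them at an earlier age, but by developmental criteria the study too analysed them with its oldest group. Correlations used deviations from group means in Python 3.11.15 with pandas 2.3.3 and matplotlib 3.10.9.

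The members, the gene lists (SOX groups, endothelial, germ cell, cartilage, neuronal, *SOX4* and *SOX11* targets, Sertoli, pre-granulosa, interstitial, surface epithelium, mesonephros, skeletal muscle, erythroid, macrophage, proliferation, stress) and the tests were chosen with earlier results of these data known. Named genes are the members, the 3 loci most correlated with each, marker genes, and up to 3 genes of a list with the lowest adjusted p. The germ cell gene *NANOS3* at d37-39 was named after its values were seen. Alternatives were another pseudocount (0.1), filter (4 FPKM or none), rescaling, no trend, all groups in 1 fit, litter as a random effect, fixed factor or mean, d39 embryos alone, other placements of d41 embryos and leaving out each library. Removal of the gene density trend, annotated loci alone, *SOX12* summed with its antisense locus and leaving out the 4 libraries were added after seeing the data.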

Additional observations from a re-analysis of the deposited data

Results flagged for a closer look

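Among 63 groups of 4 to 9 libraries, 8 held a library far from the rest by Dixon's test at the 95% level, which chance alone flags in about 1 group of 20. In XX DSD gonads of d35, C3575 stood high for the locus antisense to *SOX12* (33.7 FPKM, next 28.4) and for *SOX15* (4.32 FPKM, next 2.07), and C3511 stood low for *SOX12* (19.3 FPKM, next 30.9). In XX DSD gonads of d41-44, C3659, the only one of d44, stood high for *SOX17* (4.86 FPKM, next 3.48).

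In XY littermates of d37-39, C3516, the only one of d37, stood high for *SOX18* (3.40 FPKM, next 0.989), and C3637 stood high for *SOX15* (2.44 FPKM, next 0.68). C3637 is among the 4 libraries richest in unannotated loci. Among controls of d37-39, the XX embryo A1086 stood high for *SOX13* (12.3 FPKM, next 10.5), and the XY embryo A1091 stood high for *SOX15* (5.57 FPKM, next 1.52).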

How the results depend on the processing

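No result changed direction past its threshold under any alternative run. Over all comparisons, 130 of 165 counts of called genes stayed within 1.5 times, and 1186 of 1287 single-gene results kept their side of the threshold, 74 losing and 27 gaining a call. Between XX DSD and XX control gonads the count of 5 at d37-39 became 0 with 1 mean per litter. At both ages the count stayed within 1.5 times under the other alternatives, apart from the litter means of d41-44, which could not test it. Between XY littermates and XY controls at d37-39 the count of 1 became 2 with a pseudocount of 0.1, 5 with all groups in 1 fit or with annotated loci alone, and 0 with no filter, without trend, with litter as a random effect or a mean, with d39 embryos alone and without the 4 libraries richest in unannotated loci. At d41-44 the count of 4 became 0 with no filter, without trend, without the d41 embryos and with the density trend removed. Litter means there held a single control litter and could not test the calls. Between XX and XY controls the count of 3 became 0 at d37-39 with d39 embryos alone and 1 at d44 with all groups in 1 fit. Between XX DSD and XY littermate gonads the count became 0 at d35 with litter as a fixed factor, 1 at d37-39 with no filter, without trend or with litter as a fixed factor, and 0 without the 4 libraries. At d41-44 it became 2 by median-of-ratios rescaling, without trend, with all groups in 1 fit, with annotated loci alone or with *SOX12* summed with its antisense locus, and 0 without the d41 embryos. In XX controls by age the count of 2 became 0 with no filter, rescaling, without trend, all groups in 1 fit and litter as a random effect. It became 1 with the density trend removed, and litter means, with a single litter of d44, could not test it. In these counts of 0 by limma, 1 to 5 genes had an unadjusted p under 0.05. The cause was not tested. Leaving out 1 library gave 5 to 6 called genes between XX DSD and XX control gonads at each age, 0 to 3 and 0 to 2 in XY embryos at d37-39 and d41-44, 1 to 3 between control sexes at each age, 1 to 5, 1 to 2 and 1 to 3 between pedigree sexes by age, 2 to 2 in XX DSD gonads by age, 0 to 1 in XX controls by age and 0 to 0 in the rest. The labels give no replicate numbers across groups, but the sexes share litters: with litter as a fixed factor, a within-litter fit, the counts were 0 at d35, 1 at d37-39 and 1 at d41-44 in the pedigree and 3 in controls of d37-39. The annotated gene table and a correction for GC content were not run.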

Other observations

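Of 10 other SOX genes listed, 6 had a locus with their name alone, and these were low apart from *SOX9* and *SOX10*. *SRY*, *SOX1*, *SOX14* and *SOX21* were not analysed here. *SOX10*, a neighbour of *SOX9* in the SOXE group, had 1.52 to 16.0 FPKM in single XY embryos and at most 1.63 FPKM in XX embryos. *SOX8*, the remaining SOXE gene, did not pass 0.588 FPKM, *SOX3* did not pass 0.678 FPKM, *SOX30* 0.24 FPKM, and *SOX2* 0.173 FPKM in single embryos.

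Lists of other cell types gave these counts between XX DSD and XX control gonads at d37-39 and d41-44. Over all loci, 5.65% were called higher and 8.11% lower at d37-39, and 19.3% higher and 29.2% lower at d41-44. Whether any list differed from these shares was not tested. By limma, Sertoli genes had 0 of 6 called (1 at an unadjusted p under 0.05) and then 1 higher and 1 lower of 6, and pre-granulosa genes 3 and 6 lower of 9. Interstitial genes had 1 higher and 1 lower of 7 and then 2 and 2 of 8, and surface epithelium genes 1 and 4 lower of 7. Mesonephros genes had 0 (1 unadjusted) and 1 lower of 5, macrophage genes 1 lower of 6 and then 1 higher and 2 lower of 7, and erythroid genes 0 of 6 at both ages (0 and 1 unadjusted). Proliferation genes had 0 of 6 (1 unadjusted) and then 2 higher and 3 lower, stress genes 1 higher and 1 lower of 7 and then 3 lower of 6, and 1 skeletal muscle gene was tested and called higher and then lower. The pre-granulosa list summed to 75.1 to 132 FPKM in XX DSD gonads against 123 to 198 FPKM in XX controls at d37-39, and to 93.8 to 127 FPKM against 220.9 to 231 FPKM at d41-44.

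The pools of d34 control gonads held 1 library per sex and were not compared by test. The XX pool had 12.6 FPKM of *SOX4*, 30.3 FPKM of *SOX12*, 10.7 FPKM of *SOX5*, 6.00 FPKM of *SOX13*, 3.18 FPKM of *SOX17* and 3.09 FPKM of *SOX18*. The XY pool had 81.8 FPKM of *SOX4*, 103 FPKM of *SOX12*, 24.6 FPKM of *SOX5*, 14.6 FPKM of *SOX13*, 7.77 FPKM of *SOX17* and 10.97 FPKM of *SOX18*. For *SOX4*, *SOX12* and *SOX18* the XY pool lay above all 53 single-embryo libraries, and it was the shallowest library, at 0.254 of the median depth. The locus antisense to *SOX12* had 35.8 FPKM in the XX pool and 37.3 FPKM in the XY pool.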
